A study of Mus musculus with 6 samples.

Results

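The mitotic genes of G2 and M phase described here are 36 genes that act between the end of DNA replication and the division of the cell. They were chosen by name, as the rows of the count table that carry their symbols, and they are 36 of the 29493 genes in the table. All 36 were found and all passed the filter on low counts. The cells were HT22, a neuronal line derived from mouse hippocampus, and every library came from a single stable line, labelled HT22-TR/TO-V5Klf13-1, in which a V5-tagged KLF13 transgene is held under the tet repressor. Dox libraries (n = 3) came from cells given 1 µg/ml doxycycline for 8 hours, and Vehicle libraries (n = 3) from cells of the same line, with the same transgene, given vehicle. The series title places the question in how KLF13, a zinc-finger factor of the Krüppel-like family, acts in hippocampal neurons. No library held doxycycline in cells without the transgene, so an effect of KLF13 and an effect of the drug cannot be told apart. Nothing in the labels tells if replicates were grown as separate cultures, and p-values here rest on the spread of 3 libraries per group, part or all of which may be technical.

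Mitotic genes are transcribed late in the cell cycle. In resting and early-cycle cells the DREAM complex, built on the MuvB core, keeps them off, and in G2 the same core works with B-MYB and FOXM1 to turn them on. Their promoters often hold a cell cycle homology region, which MuvB binds, and CCAAT boxes, which NF-Y binds. Their products activate CDK1, assemble the spindle, hold the checkpoint until the chromosomes are attached, and then cut the cell apart, after which many are destroyed through the anaphase-promoting complex (APC/C).

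Klf13 (chr7:63886351-63938915, GRCm38) was measured at 204.6, 187.7 and 183.6 CPM (counts scaled by library size, as used for every level here) in the Dox libraries, against 36.98, 36.09 and 39.12 CPM in the Vehicle libraries. Reads of the KLF13 transgene may be counted in the same entry, so RNA from the transgene and from this locus cannot be told apart in either group. The groups lay far apart, and the rise was 5.13-fold (log2 fold change 2.36 ± 0.054 SE, with an adjusted p of 1.5e-06 by the quasi-likelihood test of edgeR). Libraries held 38.6e6 to 52.9e6 counts, and the first principal component (58.8% of the variance) separated Dox from Vehicle. Defining neuronal markers were low or missing from what was measured. Of 9 neuronal genes, Map2 and Syp lay under 1 CPM, and Rbfox3, Dcx, Snap25, Nefl and Nefm had no entry among the genes counted. The summed level was 17.5 to 18.0 CPM with Dox and 65.6 to 66.4 CPM with Vehicle, most of it Tubb3 (14.7 and 60.8 CPM). Of 5 fibroblast genes, Col1a2 and Col1a1 were abundant. They made up most of a sum of 5918 to 6193 CPM with Dox and 7517 to 7985 CPM with Vehicle. Pdgfra was at 32.5 CPM with Dox and 51.9 CPM with Vehicle, Dcn at 4.24 and 5.01 CPM, and Lum under 1 CPM. The part of these markers in the results below was not tested. Of neural progenitor genes, Vim was at 1399 CPM with Dox and 1862 CPM with Vehicle. Nes lay under 1 CPM, and Sox2 and Pax6 had no entry among the genes counted. Of the markers of astrocytes and microglia, only Tmem119 (19.9 CPM with Dox and 30.4 CPM with Vehicle) exceeded 1 CPM with Vehicle.

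Promoters of the members are shown first, because the members share letters there that the choice by name did not use. RefSeq (GRCm38.p6) gave a window of 250 bases before to 50 bases after the start for 29 of the 36 members. The 150 bases before the start follow for 3 members with large rises and for all 3 members that fell, 5′ to 3′ on the strand of the gene. Capitals mark TTTGAA, the letters of the cell cycle homology region, as well as CCAAT and the GC box GGGCGG, each on either strand.
Aurka (chr2:172370571-172370720, minus strand): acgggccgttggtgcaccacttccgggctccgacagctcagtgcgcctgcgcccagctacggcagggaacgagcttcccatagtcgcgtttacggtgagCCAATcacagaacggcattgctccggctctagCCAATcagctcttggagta
Prc1 (chr7:80294301-80294450, plus strand): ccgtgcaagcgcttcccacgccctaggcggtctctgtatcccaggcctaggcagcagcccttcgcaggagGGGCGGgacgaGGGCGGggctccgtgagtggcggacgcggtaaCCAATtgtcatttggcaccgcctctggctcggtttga
Cenpe (chr3:135212413-135212562, plus strand): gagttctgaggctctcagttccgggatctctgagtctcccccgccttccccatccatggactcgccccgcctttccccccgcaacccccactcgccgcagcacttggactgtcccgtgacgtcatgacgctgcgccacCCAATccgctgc
Cdc25b (chr2:131186798-131186947, plus strand): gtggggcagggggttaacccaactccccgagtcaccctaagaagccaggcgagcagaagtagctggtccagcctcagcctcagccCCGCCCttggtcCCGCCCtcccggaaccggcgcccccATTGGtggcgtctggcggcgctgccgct
Bub1b (chr2:118598061-118598210, plus strand): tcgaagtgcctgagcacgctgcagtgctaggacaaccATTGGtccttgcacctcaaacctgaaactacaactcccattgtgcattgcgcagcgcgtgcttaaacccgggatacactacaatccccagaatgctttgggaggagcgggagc
Kif23 (chr9:61946800-61946949, minus strand): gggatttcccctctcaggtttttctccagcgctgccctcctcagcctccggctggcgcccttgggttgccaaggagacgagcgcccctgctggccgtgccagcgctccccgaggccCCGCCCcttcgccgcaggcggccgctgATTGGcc
All 6 windows held at least one CCAAT box in these 150 bases, those that fell as well as those that rose. GC boxes stood in the Prc1, Cdc25b and Kif23 stretches.

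The homology region lay close to the start, and in 14 of the 22 members that hold it the nearest match began after the start. For 12 members, 30 bases around it are given, again on the strand of the gene, with TTTGAA in capitals. They include risers, both fallers that hold these letters, and Cenpf and Cenpa, which did not pass the test.
Aurka (chr2:172370523-172370552, minus strand): ttaaaaggagaaccTTTGAAttgtaacggc
Prc1 (chr7:80294432-80294461, plus strand): cgcctctggctcggTTTGAAttccgcgggg
Cdc20 (chr4:118437346-118437375, minus strand): taagacagttgggtTTTGAAggagccaatg
Kif18b (chr11:102925106-102925135, minus strand): agcggaccggctagTTTGAAcgcgccgcgc
Hmmr (chr11:40733414-40733443, minus strand): aaagttgaggtaaaTTTGAAttcaggcgag
Plk1 (chr7:122159451-122159480, plus strand): ttcccagcgccgcgTTTGAAttcggggagg
Ccnb2 (chr9:70421535-70421564, minus strand): tcagcggcgcggtaTTTGAAtcgcggaccg
Cdk1 (chr10:69352912-69352941, minus strand): tttaccgcggcgagTTTGAAactgctggca
Cenpf (chr1:189688069-189688098, minus strand): gcggcggcgggcagTTTGAAtcgctcgtgc
Cenpa (chr5:30666888-30666917, plus strand): ggggcgggtgatttTTTGAActgctggcga
Bub1b (chr2:118598231-118598260, plus strand): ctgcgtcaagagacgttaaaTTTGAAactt
Kif23 (chr9:61946782-61946811, minus strand): cgctgattggcctgTTTGAAatgcgccggg
TTTGAA was found on either strand in 22 of the 29 members (75.9%), beside 17.9% of all 32851 windows of the same length in the table and 14.9% of 10219 tested genes with a window. Members and tested genes were counted once if any of their windows held the letters, whereas the share of all windows counts each window. The match nearest to the start began within 50 bases before it, or after it, in 20 of those 22 genes. Of the 3 fallers, Bub1b and Kif23 held TTTGAA and Cdc25b did not. CCAAT was found in 23 members (79.3%), beside 37.4% of all windows and 43.8% of tested genes. A GC box, GGGCGG, stood in 25 members (86.2%), beside 35.7% of all windows and 66.4% of tested genes. The letters CACCC, which with GC boxes are known as binding letters of Krüppel-like factors, stood in 14 members (48.3%), beside 57.5% of all windows and 65.9% of tested genes. The homology region, the CCAAT box and the GC box stood together in 17 members, and Nusap1 held none of these 3. The ends of CACCC and of the GC box on its other strand can overlap a CCAAT box, and each motif was counted on its own. The RefSeq start lies 3867 bases inside the GENCODE gene for Kif2c, 328 bases inside it for Kif4 and 109 bases inside it for Cenpa, and it lies before the gene for Mad2l1 (at -169 bases), so these windows may not be the promoter in use. Matches describe the sequence and are neither measured sites nor causes.

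Of the 36 members, 25 rose with Dox (69.4%), 3 fell (8.33%) and 8 did not pass the test. The background was high: 54.7% of the 18067 genes tested were called, 25.9% as higher and 28.8% as lower with Dox. The members' share of rises was thus above, and their share of falls below, that of all tested genes, and among the 7790 genes at or above the lowest level of a member with Vehicle, 31.7% rose and 40.1% fell. The changes were small. The median log2 fold change of the members was 0.21 (quartiles 0.072 and 0.31), against a median of 0.018 over all tested genes, and rises ran between 1.06-fold and 1.51-fold. Only 14 of the 25 rises exceeded 1.2-fold, and Cdc25c alone exceeded 1.5-fold. When the test was set against a 1.2-fold change (glmTreat), 8 members rose (Cdc25c, Aurka, Tpx2, Cdc20, Kif2c, Kif18b, Cenpe and Hmmr) and Cdc25b fell. Of all 18067 tested genes, 2417 were then called higher and 3615 lower. Dox and Vehicle libraries did not overlap for 30 members, beside 64.0% of all tested genes.

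**Figure D1:**
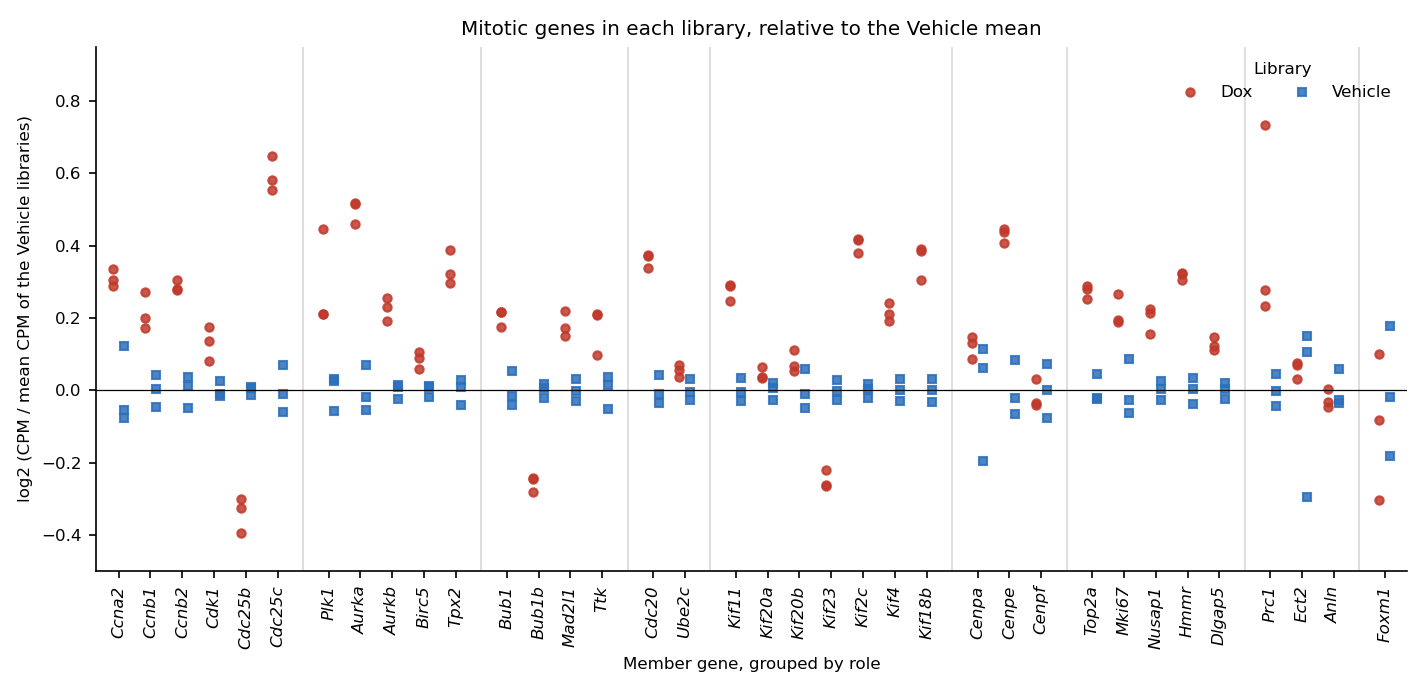
Level of each of the 36 mitotic genes in each library, as the log2 ratio of its CPM to the mean of the 3 Vehicle libraries, with genes grouped by role. Circles are the Dox libraries and squares the Vehicle libraries. Most Dox circles lie between 0.1 and 0.5, those of Cdc25b, Bub1b and Kif23 lie below 0, and 1 Dox circle of Prc1 stands far above the other two.

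The summed level of the members was 7517, 7520 and 7479 CPM in the Dox libraries, against 6528, 6772 and 6475 CPM in the Vehicle libraries. As a share of raw counts, free of the scaling, they took 0.770%, 0.770% and 0.765% with Dox, against 0.639%, 0.656% and 0.634% with Vehicle. Every Dox library thus gave the members a larger share than any Vehicle library did. In bulk RNA, more cells in G2 or M phase and more mitotic RNA per cell cannot be told apart. Replicates were close, with a median coefficient of variation of 1.96% with Dox (highest 20.1%, Prc1) and 2.76% with Vehicle (highest 16.1%, Ect2). In the authors' deposited table, 23 members were called higher and 3 lower at their adjusted p of 0.01, all 36 with the sign found here. That table called 7703 genes in all, in either direction, and it was made from the same libraries.

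**Figure D2:**
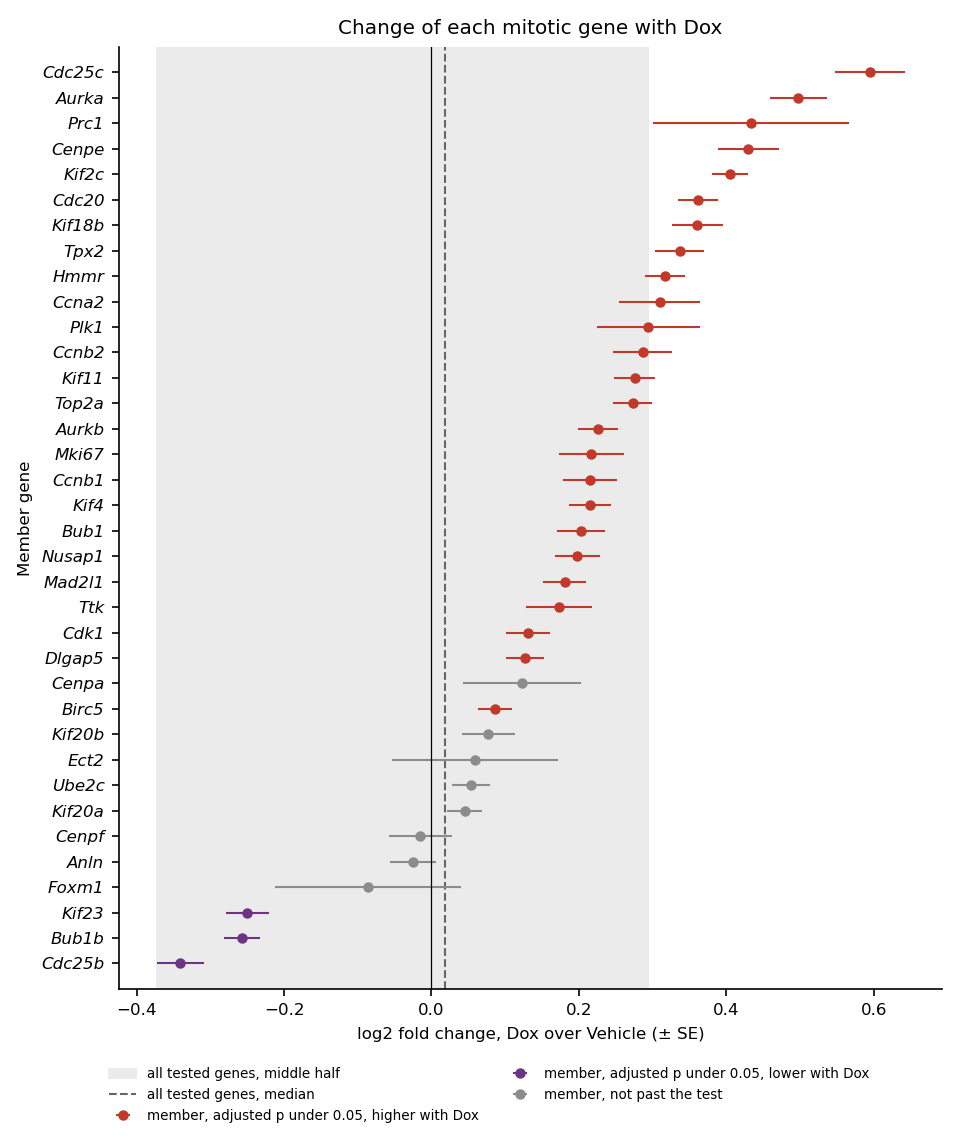
Log2 fold change of each mitotic gene, Dox over Vehicle, with its standard error (n = 3 libraries each), ordered by size. Points are coloured by whether the gene was higher, lower or not past the test at an adjusted p under 0.05, and the grey band and dashed line give the span between the quartiles and the median of all tested genes, with Cdc25c at 0.60 and Cdc25b at -0.34 at the ends.

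CDK1, its cyclins and its phosphatases were the first role group, and 5 of these 6 genes rose while 1 fell. Counts in this and the following role groups describe few genes, beside 25.9% of all tested genes that rose and 28.8% that fell. Cdc25c, a phosphatase that removes the inhibitory phosphates of CDK1 at mitotic entry, was measured at 50.19, 51.10 and 53.50 CPM in the Dox libraries, against 33.88, 35.85 and 32.73 CPM in the Vehicle libraries. That was the largest rise of any member, 1.51-fold (log2 fold change 0.60 ± 0.047 SE, adjusted p = 7.4e-05). Cdc25b, the phosphatase of the same family that starts CDK1 activation at the centrosome, did the opposite. Its level was 73.84, 78.82 and 77.55 CPM in the Dox libraries, against 97.58, 96.22 and 97.73 CPM in the Vehicle libraries. Every Dox library lay below every Vehicle library, and the fall was 1.27-fold (log2 fold change -0.34 ± 0.032 SE, adjusted p = 1.7e-04), the largest among the members. Cdk1, the kinase of mitotic entry, rose by a small amount (267.6 ± 8.54 CPM with Dox and 244.3 ± 3.78 CPM with Vehicle, SD, n = 3 each, log2 fold change 0.13, adjusted p = 0.0094), and its log2 fold change was 0.23 with an offset for transcript length. For its cyclin partners, log2 fold changes were 0.31 for Ccna2 (cyclin A2), 0.29 for Ccnb2 (cyclin B2) and 0.22 for Ccnb1 (cyclin B1), and no test set these against Cdk1. Exons of Cdc25c share 623 bases with the antisense gene Gm3550, at 12.9 CPM with Dox and 12.7 CPM with Vehicle, and those of Ccna2 share 510 bases with Exosc9, at 104.8 and 70.5 CPM. Without a known strand setting their counts are uncertain, and the part of these neighbours in the changes was not tested.

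All 5 mitotic kinases and their partners rose. Aurka, the kinase that matures centrosomes and builds the spindle, was measured at 150.4, 144.7 and 150.8 CPM in the Dox libraries, against 110.5, 104.0 and 101.3 CPM in the Vehicle libraries. The groups stood apart by a wide gap, and the rise was 1.41-fold (log2 fold change 0.50 ± 0.039 SE, adjusted p = 7.6e-05). Tpx2, which activates Aurora A on spindle microtubules, was measured at 250.9, 246.5 and 262.6 CPM with Dox, against 202.0, 204.7 and 195.2 CPM with Vehicle. It rose by 1.26-fold (log2 fold change 0.34 ± 0.033 SE, adjusted p = 2.0e-04), again with no overlap. Aurkb, the kinase of the chromosomal passenger complex that corrects wrong attachments, rose by 1.17-fold (128.6 ± 2.76 CPM with Dox and 109.9 ± 1.56 CPM with Vehicle, SD, n = 3 each). Birc5 (survivin), which places that complex on the centromere, rose by only 1.06-fold (adjusted p = 0.020), and the call was lost without Dox 1, Dox 3, Vehicle 2 or Vehicle 3. Plk1, the polo kinase of spindle assembly and mitotic entry, was measured at 152.9, 130.0 and 129.8 CPM with Dox, against 114.6, 114.3 and 107.8 CPM with Vehicle. The library Dox 1 stood above the other Dox libraries, which still lay above all Vehicle libraries (log2 fold change 0.29 ± 0.070 SE, adjusted p = 0.012).

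Spindle checkpoint genes divided into 3 that rose and 1 that fell. Bub1b encodes BUBR1, a part of the mitotic checkpoint complex that inhibits CDC20. It was measured at 95.38, 92.87 and 95.32 CPM in the Dox libraries, against 114.2, 113.4 and 111.2 CPM in the Vehicle libraries, a 1.19-fold fall with no overlap (log2 fold change -0.26 ± 0.025 SE, adjusted p = 2.1e-04). Bub1, the related kinase that recruits BUBR1 to kinetochores, rose by 1.15-fold (141.2 ± 2.31 CPM with Dox and 122.7 ± 4.27 CPM with Vehicle, SD, n = 3 each, adjusted p = 0.0021). Mad2l1, which encodes the MAD2 protein of the same complex, rose by 1.13-fold (log2 fold change 0.18, and 0.37 with an offset for transcript length). Ttk, the kinase at the head of the checkpoint (MPS1), rose by 1.13-fold as well (adjusted p = 0.017), and that call was lost without Dox 2, Dox 3 or Vehicle 3.

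Of the genes of the APC/C step, Cdc20 rose and Ube2c did not pass the test. Cdc20, the APC/C activator that the checkpoint holds back, was measured at 369.1, 360.0 and 368.5 CPM in the Dox libraries, against 293.2, 278.0 and 282.8 CPM in the Vehicle libraries. The rise was 1.29-fold with tight replicates (log2 fold change 0.36 ± 0.027 SE, adjusted p = 5.7e-05). Its neighbour Elovl1, with which it shares 53 exonic bases, was at 39.3 CPM with Dox and 84.3 CPM with Vehicle, so the neighbour changed in the other direction. Ube2c, the ubiquitin-conjugating enzyme of the APC/C, was measured at 143.1, 141.0 and 144.4 CPM with Dox, against 140.6, 137.0 and 135.0 CPM with Vehicle. The Dox values were all above the Vehicle values, by too little to pass the test (log2 fold change 0.054, adjusted p = 0.12). It passed with a GC offset (0.15, adjusted p = 0.0019), with upper-quartile scaling (0.15) and with a mean of at least 5 CPM (0.073).

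Among the 7 kinesins, 4 rose, 1 fell and 2 did not pass. Kif2c (MCAK), which takes microtubules apart at their ends and frees wrong attachments, had the smallest p of all members: 154.8, 150.8 and 154.5 CPM in the Dox libraries, against 117.2, 114.2 and 116.1 CPM in the Vehicle libraries. Its rise was 1.32-fold (log2 fold change 0.41 ± 0.024 SE, adjusted p = 2.2e-05). Kif18b, a motor that works with MCAK at the plus ends of astral microtubules, was measured at 143.1, 142.6 and 134.9 CPM with Dox, against 109.2, 111.6 and 106.6 CPM with Vehicle. It too rose with no overlap, by 1.28-fold (log2 fold change 0.36 ± 0.034 SE, adjusted p = 1.6e-04). Kif11 (Eg5), which pushes the spindle poles apart, and the chromokinesin Kif4 rose as well, with log2 fold changes of 0.28 and 0.22. Kif4 shares 832 exonic bases with the antisense gene Pdzd11, at 47.8 CPM with Dox and 41.9 CPM with Vehicle. Pdzd11 rose too (log2 fold change 0.19, adjusted p = 0.036), and its part in the change of Kif4 was not tested.

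Kif23 (MKLP1), the motor of the centralspindlin complex at the midzone, was the kinesin that fell. It was measured at 72.95, 72.87 and 75.12 CPM in the Dox libraries, against 85.86, 89.31 and 87.49 CPM in the Vehicle libraries. The groups did not overlap, and the fall was 1.19-fold (log2 fold change -0.25 ± 0.029 SE, adjusted p = 4.3e-04). Racgap1, its partner in centralspindlin, named here after its values were seen, fell as well (288.3 CPM with Dox and 310.8 CPM with Vehicle, log2 fold change -0.11, adjusted p = 0.0040). Kif20a (MKLP2), which carries the passenger complex to the midzone, was measured at 177.0, 177.2 and 180.9 CPM with Dox, against 175.3, 173.6 and 169.8 CPM with Vehicle. Its groups did not overlap but lay close together (log2 fold change 0.045, adjusted p = 0.16). It shares 1271 exonic bases, equal to 34.6% of its transcript length, with the antisense gene Cdc23, at 137.4 CPM with Dox and 117.5 CPM with Vehicle. Kif20b, a kinesin of late cytokinesis, was measured at 124.9, 123.6 and 128.7 CPM with Dox, against 118.3, 124.2 and 115.1 CPM with Vehicle. Those groups overlapped (log2 fold change 0.077, adjusted p = 0.12). Kif20b passed with a length offset (0.22, adjusted p = 0.0015), with upper-quartile scaling (0.17), with a mean of at least 5 CPM (0.096) and without Vehicle 2 (0.11), and stood at 0.004 with a GC offset. Kif20a passed with the length offset (0.11), upper-quartile scaling (0.14) and a mean of at least 5 CPM (0.064).

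At the centromere, 1 of 3 members rose (33.3%), beside 25.9% of all tested genes and 31.7% of those at the members' levels. Cenpe, the kinetochore motor that moves chromosomes to the plate, was measured at 263.1, 264.9 and 257.8 CPM in the Dox libraries, against 185.6, 205.9 and 191.6 CPM in the Vehicle libraries. It rose by 1.35-fold (log2 fold change 0.43 ± 0.041 SE, adjusted p = 1.8e-04). Cenpf, a kinetochore protein of the outer corona, did not pass and its groups overlapped: 165.2, 173.6 and 166.0 CPM with Dox, against 161.2, 178.8 and 170.0 CPM with Vehicle (log2 fold change -0.015 ± 0.043 SE, adjusted p = 0.80). With an offset for transcript length, Cenpf stood at 0.23 and passed (adjusted p = 2.3e-04). Cenpa, the histone H3 variant that marks centromeres, was measured at 95.62, 94.53 and 91.52 CPM with Dox, against 90.07, 93.39 and 75.32 CPM with Vehicle. The library Vehicle 3 was low and the groups overlapped (log2 fold change 0.12 ± 0.080 SE, adjusted p = 0.25). The value was 0.032 without Vehicle 3, and with upper-quartile scaling it was 0.22 and passed (adjusted p = 0.048).

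The 5 genes of mitotic chromosomes and spindle fibres all rose. Hmmr, a spindle assembly protein, was measured at 140.0, 140.3 and 138.2 CPM in the Dox libraries, against 112.1, 114.6 and 109.1 CPM in the Vehicle libraries. Its rise was 1.25-fold, with the tightest Dox replicates of any member (log2 fold change 0.32 ± 0.027 SE, adjusted p = 1.1e-04). Top2a, the topoisomerase that untangles sister chromatids, rose by 1.21-fold (1064 ± 12.7 CPM with Dox and 880.1 ± 24.7 CPM with Vehicle, SD, n = 3 each). Mki67, whose protein coats mitotic chromosomes, rose by 1.16-fold (log2 fold change 0.22, and 0.45 with an offset for transcript length), Nusap1, which bundles spindle microtubules, by 1.15-fold, and Dlgap5 (HURP), which steadies kinetochore fibres, by 1.09-fold.

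Of the 3 cytokinesis genes, 1 rose (33.3%) and the others did not pass, beside 25.9% of all tested genes that rose. Prc1, which bundles the antiparallel microtubules of the midzone, was measured at 232.9, 169.8 and 164.7 CPM in the Dox libraries, against 144.5, 140.0 and 135.9 CPM in the Vehicle libraries. All Dox libraries were above all Vehicle libraries, but Dox 1 stood well above the other two. The log2 fold change was 0.43 ± 0.13 SE (adjusted p = 0.032), and it was 0.26 (adjusted p = 0.0033) without Dox 1. Leaving out Vehicle 1, Vehicle 2 or Vehicle 3 ended the call, at an adjusted p between 0.068 and 0.092. Prc1 shares 911 exonic bases with the antisense gene Rccd1, at 13.4 CPM with Dox and 7.83 CPM with Vehicle. Ect2, the exchange factor that activates RhoA at the equator, was measured at 166.0, 170.6 and 171.3 CPM with Dox, against 132.4, 180.3 and 174.7 CPM with Vehicle. Vehicle 1 was low and the groups overlapped (log2 fold change 0.059 ± 0.11 SE, adjusted p = 0.69), and without it the value was -0.070. Anln, a scaffold of the contractile ring, was measured at 709.0, 734.1 and 715.9 CPM with Dox, against 719.2, 762.8 and 714.7 CPM with Vehicle, with overlapping groups (log2 fold change -0.025 ± 0.031 SE, adjusted p = 0.54). With an offset for transcript length it stood at 0.081 and passed.

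Foxm1, the transcription factor of this gene programme, was not among the risers. It was measured at 187.5, 212.6 and 160.8 CPM in the Dox libraries, against 224.4, 196.1 and 175.0 CPM in the Vehicle libraries. The libraries of both groups were scattered and overlapped, so the change could not be set apart from 0 (log2 fold change -0.086 ± 0.13 SE, adjusted p = 0.60).

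Related members can be set against each other within a library as a ratio of raw counts that no scaling touches. The 6 pairs were chosen after the values were seen, so no test is given. Cdc25c counts were 0.680, 0.648 and 0.690 times those of Cdc25b in the Dox libraries, against 0.347, 0.373 and 0.335 times in the Vehicle libraries. Bub1 counts were 1.45, 1.54 and 1.49 times those of Bub1b with Dox, against 1.04, 1.12 and 1.09 times with Vehicle. In both pairs every Dox library gave a higher ratio than any Vehicle library. The ratio of Aurka to Aurkb was 1.15, 1.12 and 1.2 with Dox, against 1.02, 0.937 and 0.915 with Vehicle. For Kif20a over Kif23 it was 2.43, 2.43 and 2.41 with Dox, against 2.04, 1.94 and 1.94 with Vehicle. The ratio of Ccnb1 to Ccnb2 was 4.93, 5.04 and 5.19 with Dox, against 5.11, 5.66 and 5.18 with Vehicle, so the cyclin B pair overlapped between the groups. For Prc1 over Kif4 it was 2.23, 1.57 and 1.56 with Dox, against 1.55, 1.53 and 1.52 with Vehicle, where Dox 1 stood apart and the other Dox libraries lay just above the Vehicle libraries. These ratios compare counts and not levels per length.

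**Figure D3:**
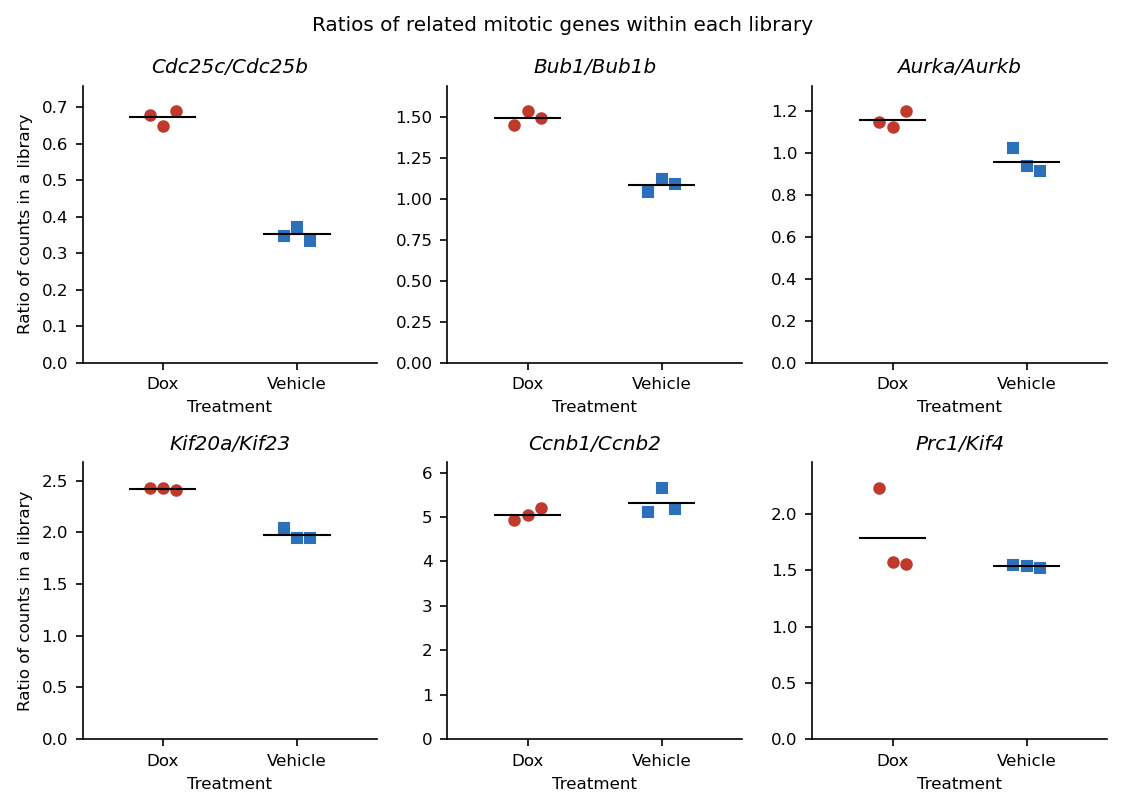
Ratio of the raw counts of related mitotic genes within each library, with 1 panel for each of 6 pairs and the Dox libraries (circles) left of the Vehicle libraries (squares). Horizontal lines are means of the 3 libraries, and each axis starts at 0. The Dox libraries lie above the Vehicle libraries for 5 pairs, by little for Prc1 over Kif4 apart from Dox 1, and overlap with them for Ccnb1 over Ccnb2.

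Per kilobase of the longest annotated transcript, the most abundant members were Top2a at 203.7 CPM per kilobase with Dox and 168.6 with Vehicle, Cdc20 at 204.0 and 158.8, Anln at 156.3 and 159.0, and Ccna2 at 141.2 and 113.9. The Vehicle libraries of Anln (155.2 to 165.6) and Cdc20 (155.1 to 163.5) overlapped, so their order is not set. Lowest with Vehicle were Ccnb2, at 18.6 CPM per kilobase with Dox and 15.3 with Vehicle, Cenpf, at 15.1 and 15.3, and Ttk, at 18.0 and 16.0, whose Vehicle libraries overlapped. The signed log2 fold change bore little relation to level. Across the 36 members, which share all 6 libraries, Spearman's correlation of the log2 fold change was -0.048 with the Vehicle level, -0.28 with transcript length and 0.078 with GC content.

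Beyond the members, 7 further lists of mitotic genes held 164 genes, all tested, of which 79 rose (48.2%), 43 fell (26.2%) and 42 did not pass, with a median log2 fold change of 0.11. Their share of rises lay between that of the members (69.4%) and that of all tested genes (25.9%). Of all tested genes, 28.8% fell. Values in brackets and changes in the lists that follow are log2 fold changes. Mitotic entry regulators counted 14 rises and 4 falls in 23 (60.9% and 17.4%, median 0.22). In that list Haspin, the histone H3 kinase of centromeres, was at 74.8 CPM with Dox and 44.7 CPM with Vehicle (log2 fold change 0.74, adjusted p = 4.0e-06), and Incenp, the scaffold of the passenger complex, rose by 0.53. Wee1, a kinase that holds CDK1 inactive, fell by 0.39 on the log2 scale, and the CDK-binding subunit gene Cks1b fell by 0.46. Of 35 kinetochore and CENP genes, 18 rose (51.4%) and 6 fell (17.1%), with a median of 0.18. Zw10 (0.50) and Cenpq (0.65) were among the rises and Cenpb (-0.19) and Pmf1 (-0.18) among the falls.

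The other lists were more divided, beside 25.9% of all tested genes that rose and 28.8% that fell. Of 25 condensin, cohesin and separase genes, 12 rose (48%) and 7 fell (28%), with a median of 0.026. The condensin subunits Ncapg (0.68) and Ncapd2 (0.49) rose, while the cohesin genes Pds5b (-0.72) and Stag2 (-0.45) fell. Neither complex moved as 1 group, as genes named after their values were seen went the other way. The condensin subunits Smc4 (-0.252) and Ncaph2 (-0.125) fell, and the cohesin subunit Smc1a (0.131) rose. Spindle and centrosome genes counted 15 rises and 10 falls in 33 (45.5% and 30.3%, median 0.044). There Tubg1, γ-tubulin, rose by 0.72 and Spag5 by 0.42, while Ckap2 fell by 0.36 and Kif2a, a microtubule-depolymerising kinesin related to Kif2c, fell to 28.6 CPM with Dox, against 68.2 CPM with Vehicle (log2 fold change -1.25). Of 17 APC/C genes, 8 rose (47.1%) and 6 fell (35.3%), with a median of -0.019. The APC/C inhibitor gene Fbxo5 (EMI1) rose by 0.48 and the subunit gene Cdc16 by 0.43, whereas the subunit gene Anapc2 was at 50.2 CPM with Dox and 110.2 CPM with Vehicle (log2 fold change -1.13) and Fzr1, the CDH1 activator of late mitosis, was at 47.5 and 83.7 CPM (-0.81). Cytokinesis genes counted 6 rises and 6 falls in 16 (37.5% each, median -0.022). That was near the 31.7% and 40.1% of tested genes at or above the lowest level of a member with Vehicle. Among the cytokinesis genes, Shcbp1 (0.62) and Depdc1a (0.86) were up and Spast (-1.09) and Rhoa (-0.46) down.

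The regulators of mitotic transcription did not move as 1 group. Of 15 genes of MuvB, DREAM and NF-Y, 6 rose (40%), 4 fell (26.7%) and 5 did not pass (median 0.026). Of all tested genes, 25.9% rose and 28.8% fell. Mybl2, which encodes B-MYB, was at 167.9 ± 3.14 CPM with Dox and 89.6 ± 2.24 CPM with Vehicle (SD, n = 3 each), a log2 fold change of 0.91 (adjusted p = 2.8e-06). Of the pocket proteins, Rbl2 (p130) rose by 0.63 and Rbl1 (p107) fell by 0.81 on the log2 scale, and E2f4, their DNA-binding partner in DREAM, fell by 0.30. For comparison with the earlier phase of the cycle, 26 of 34 G1/S and replication genes rose (76.5%) and 3 fell (8.82%), with a median of 0.43. Rrm2 (1.08) and Clspn (0.80) led the rises, against falls of Gins2 (-1.12) and Lig1 (-0.44). Of 17 tested arrest and p53 target genes, 5 rose (29.4%) and 6 fell (35.3%), near the shares of all tested genes (median -0.036). Gadd45a (0.59) and Ccng1 (0.22) were up and Sesn1 (-0.82) and Sesn2 (-0.47) down. No test was made of the difference between lists.

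**Figure D4:**
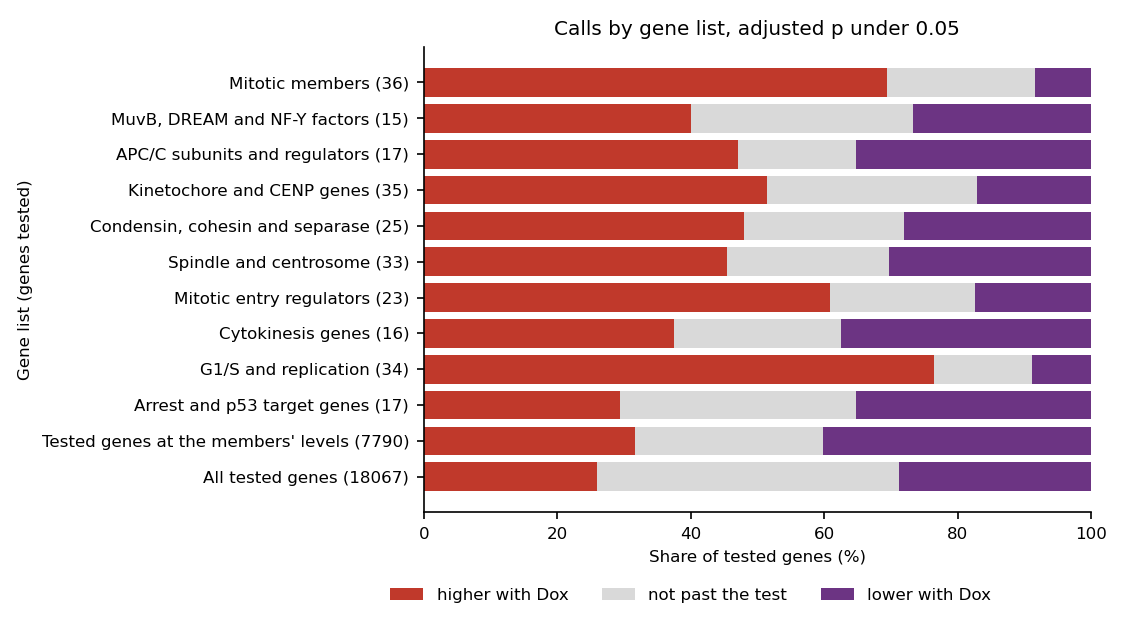
Share of tested genes that were higher with Dox, not past the test or lower with Dox (adjusted p under 0.05), for the mitotic members, each further list, the tested genes at the members' levels and all tested genes, with the number of genes tested in brackets. The bar of the members is 69.4% higher and 8.33% lower, and that of all tested genes is 25.9% higher and 28.8% lower.

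Of the members, 12 share at least 50 exonic bases with another gene, so that part of their counts may belong to a neighbour. The 24 members without such an overlap gave 17 rises and 2 falls with a median of 0.19, near the values over all 36. The call of Cdc25b (92 bases shared with Spef1, at 10.1 CPM in either group) is the fall that this count leaves out.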

How the data were processed

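RNA sequencing of 6 libraries was analysed. Tools listed in the submitters' processing notes are HISAT2 2.1.0, FastQC 0.11.3, DESeq2 and StringTie 1.3.3, and the build listed is GRCm38. Which annotation and strand setting were used, and how reads matching more than one gene were counted, is not given in the sources used here. In the first of their tables the authors deposited whole-number counts per gene symbol, not normalized. The second deposited table compares Dox with Vehicle. Per the file headers it lists the log2 fold change and its error, a test score, a p-value, raw and adjusted, and the mean signal after normalization.

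The filter filterByExpr kept 18067 genes. TMM factors lay between 0.970 and 1.03, and CPM are counts relative to the TMM-scaled library size. Both groups entered 1 fit with no covariate in edgeR 4.0.16 (quasi-likelihood test, with limma 3.58.1 and R 4.3.3). Adjustment was by Benjamini-Hochberg over all 18067 genes, with 0.05 as threshold. A standard error is the log2 fold change divided by the root of its F value. The fit was tested on simulated data. Chi-square per degree of freedom between replicates was 12.1 to 15.1, so none was a repeat of another within sampling noise. Deviations of same-numbered libraries from their group means correlated at 0.069, 0.052 and -0.094 over 14635 genes, and the samples were treated as unpaired.

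The members, the lists and the tests were chosen with earlier results of these data known. Values in every library are given for Klf13, the 8 largest rises, every member that fell or did not pass, and the member with the smallest p of each role group. Of each further list, up to 2 risers and 2 fallers with the smallest p are named. Exon overlaps and transcript lengths come from GENCODE M21 on GRCm38, in which 27367 symbols matched 1 gene, and promoters from RefSeq on GRCm38.p6. Each result was recomputed with other scalings (upper-quartile, or the size factors of DESeq2), other tests (DESeq2 1.42.0, limma-voom, or glmTreat against a 1.2-fold change), other filters (none, or a mean of at least 5 CPM), a replicate block, a threshold of 0.01, offsets for transcript length or GC content, and without each library. The count of members free of exon overlap was chosen after seeing the data.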

Additional observations from a re-analysis of the deposited data

How the results depend on the processing

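The 25 members that rose and the 3 that fell kept their direction under every alternative, and all 28 stayed past the threshold under upper-quartile scaling, the size factors or the test of DESeq2 1.42.0, limma-voom, no filter, a mean of at least 5 CPM, the replicate block and both offsets. At an adjusted p under 0.01, 21 members rose and 3 fell, beside 3477 higher and 4299 lower among the 18067 tested genes. Against a 1.2-fold change (glmTreat), 8 members rose and 1 fell, and 47 genes of the other mitotic lists rose and 20 fell. In all, 6032 of 18067 tested genes were then called, 2417 as higher and 3615 as lower. Upper-quartile scaling gave 29 risers, a member median of 0.30 and 28 falls in the other lists, and it called 6246 genes higher and 4457 lower, beside 4687 and 5203 by TMM. The member median was 0.25 with a length offset and 0.17 with a GC offset. Only 10 members held TTTGAA before the start site, beside 22 over the whole window. With the replicate block, 25 members rose, 3 fell, the median was 0.21 and 9699 genes were called, so the block changed none of these counts by over 1.5 times.

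The members that changed sign were all among those that had not passed the test. With upper-quartile scaling, the log2 fold change was 0.079 for Cenpf, 0.069 for Anln and 0.007 for Foxm1. With the length offset, it was 0.23 for Cenpf, 0.081 for Anln and 0.019 for Foxm1, and Cenpf, Anln, Kif20a and Kif20b then passed. That offset also moved called members by over 1.5 times, to 0.23 for Cdk1, 0.13 for Birc5, 0.37 for Mad2l1, 0.34 for Kif4, 0.45 for Mki67 and 0.21 for Dlgap5, and the GC offset moved Mad2l1 to 0.12. Upper-quartile scaling, under which Ube2c, Kif20a, Kif20b and Cenpa passed, gave -0.16 for Bub1b, -0.16 for Kif23, 0.23 for Cdk1, 0.18 for Birc5, 0.28 for Mad2l1, 0.27 for Ttk and 0.22 for Dlgap5. Ube2c, Kif20a and Kif20b also passed with a mean of at least 5 CPM, and Ube2c with the GC offset. With a mean of at least 5 CPM, Cenpf stood at 0.004, and with the GC offset Ect2 stood at -0.002. The cause was not tested. Leaving out each library in turn gave 22 to 24 risers and 3 fallers, with -0.054 to 0.021 for Cenpf, -0.043 to 0.004 for Anln, -0.19 to 0.014 for Foxm1 and -0.070 to 0.14 for Ect2. Each arm then holds at least 2 libraries. Birc5 and Ttk were the other risers besides Prc1 that lost the call in some of these fits. Over all members and alternatives, 554 of 612 values kept their direction and their side of the threshold. Another 33 lost the call, 11 gained it with the same sign and 14 changed sign. Those that changed sign include Cenpf and Anln with the length offset, which passed as well. Counts of the members per library lay between 888 and 52993, and the part of depth in the calls was not tested.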

Other observations

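Promoter letters were also read in tested genes that are not members. Of 10190 such genes with a promoter entry, 30.2% rose and 34.3% fell, with a median log2 fold change of -0.010. Among the 173 with both TTTGAA within 50 bases of the start and CCAAT anywhere in the window, 74 (42.8%) rose and 40 (23.1%) fell, with a median of 0.16. TTTGAA near the start with or without CCAAT was found in 385 genes, of which 36.4% rose and 28.8% fell, and CCAAT in 4450 genes, of which 33.7% rose and 30.4% fell. These shares are descriptions of overlapping groups of genes, and no test of the difference was run.

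The library Dox 1 held the highest value of both Prc1 (232.9 CPM) and Plk1 (152.9 CPM), while its summed level over all 36 members, 7517 CPM, lay between those of Dox 3 (7479 CPM) and Dox 2 (7520 CPM). The library Vehicle 1 held the lowest value of Ect2 (132.4 CPM) and the highest of Foxm1 (224.4 CPM).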
